A study of Rattus norvegicus with 20 samples.

Results

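Described here are 44 genes of the entry into DNA synthesis (the G1/S step of the cell cycle) and of DNA replication, in cortical collecting ducts of rats. They drive or restrain this entry, copy the DNA or act on its chromatin. They were taken by symbol from a count table of 32545 genes, and a member had to hold 3 or more counts in at least 3 libraries. Of the 44, 43 met this rule. Ccnd2, cyclin D2, did not: it held 163 counts in day 1 water-loaded library 3, 1 count in day 2 control library 4 and 0 in the others. Hells, a chromatin remodeler that acts with DNA methylation, met the rule but stayed under edgeR's filter on low counts, at no more than 0.228 counts scaled to library size (CPM) in any library. The other 42 members were tested among 14472 genes. The filter asked for 0.18 CPM in 3 libraries. For 5 of the 42 (Mcm10, Cdc6, Orc1, Uhrf1 and Cdca7) only the water-loaded libraries were enough to pass it, as for 7.27% of all genes tested, so for these a higher level in water-loaded rats was favoured by the filter.

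The cortical collecting duct is the last tubule segment of the kidney cortex, where vasopressin sets water uptake through principal cells. Male Sprague-Dawley rats of 5 weeks carried a subcutaneous minipump that gave the vasopressin V2 receptor agonist DDAVP at 5 ng per hour, for 5 days per the design text, so the agonist was present in the control rats too. Gelled food gave 25 mL of water per day to control rats and 50 mL per day to water-loaded rats, a model of escape from vasopressin, and ducts were dissected from the collagenase-digested left kidney after 1, 2 or 4 days. Each treatment had 3 rats at day 1, 4 at day 2 and 3 at day 4, with 1 library per rat, 20 in all.

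Before a cell copies its DNA, D and E cyclins activate their kinases, which phosphorylate the retinoblastoma family of pocket proteins and so release E2F transcription factors. E2F then raises the genes for origin licensing, the replicative helicase, the polymerases and nucleotide synthesis, and inhibitors such as p21 and p27 hold the kinases back. Cells of the adult collecting duct divide rarely, though the rats here were only 5 weeks old. Transcripts of the late, E2F-driven genes are scarce in resting cells, while D cyclins, Cdk4 and Pcna are also made outside S phase.

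Libraries held 33.5 to 74.9 M reads on genes, so that 3 counts, taken as the floor of detection, were worth 0.0414 to 0.0926 CPM, and 12665 to 15266 genes were detected. All 11 principal cell markers were above 0 in every group, with a sum of 15300 to 71500 CPM per library. 2 libraries of day 1, control 1 and water-loaded 2, were unlike the rest, with 12665 and 12788 genes detected and scaling factors of 0.645 and 0.686. Values below are CPM scaled by TMM, given as mean ± SD over rats, and log2 differences are water-loaded minus control from 1 edgeR quasi-likelihood fit over all libraries, with Benjamini-Hochberg adjusted p over all 14472 genes. In bulk ducts, fewer cells that express a gene and less RNA per cell cannot be told apart.

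Most members were higher in water-loaded rats at days 2 and 4. Uhrf1, Cdca7, Mcm10, Cdc6, Cdc45 and Orc1 were near or under the floor of detection in many control libraries, while Mcm2 to Mcm7, Gins2 and Dnmt1 held 3 or more counts in all 10. The median log2 difference of the 42 members was 1.27 at day 2, where 36 were higher, and 0.86 at day 4, where 36 were higher as well. Over all 14472 genes the median was -0.048 at day 2 and 0 at day 4, with 46.7% and 49.1% of genes higher. At day 1 the members' median was 0.10, with 22 of 42 higher, and all genes had a median of 0. Over the average of the 3 days the median was 0.65, with 38 of 42 higher, beside 0.014 and 51% over all genes. In the 37 members that passed the filter in both treatments the median was 1.05 at day 2 and 0.69 at day 4, with 31 of 37 higher on each day, and -0.08 at day 1, with 18 of 37 higher. Over the 12626 genes that did so the medians were -0.07, -0.06 and -0.05.

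The mean log2 CPM of the tested members was also compared library by library. At day 2 the control libraries stood at 1.71, 1.33, 2.12 and 2.10 and the water-loaded ones at 4.12, 4.03, 3.58 and 3.89. At day 4 controls stood at 1.02, 1.53 and 1.63 and water-loaded rats at 3.80, 3.73 and 2.63. The treatments did not overlap on either day in this log mean, which weighs scarce members as much as abundant ones. The members' summed CPM did overlap, at 1075 to 1741 against 1643 to 2744 at day 2 and 1352 to 2011 against 1774 to 1946 at day 4. At day 1 they did, with 0.93, 1.71 and 2.45 in controls and 2.46, 1.23 and 3.14 in water-loaded rats. Of the 44 members, 35 to 38 had 3 or more counts in a day 2 control library and 42 or 43 in a water-loaded one. At day 4 these numbers were 29 to 37 and 38 to 43.

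**Figure D1:**
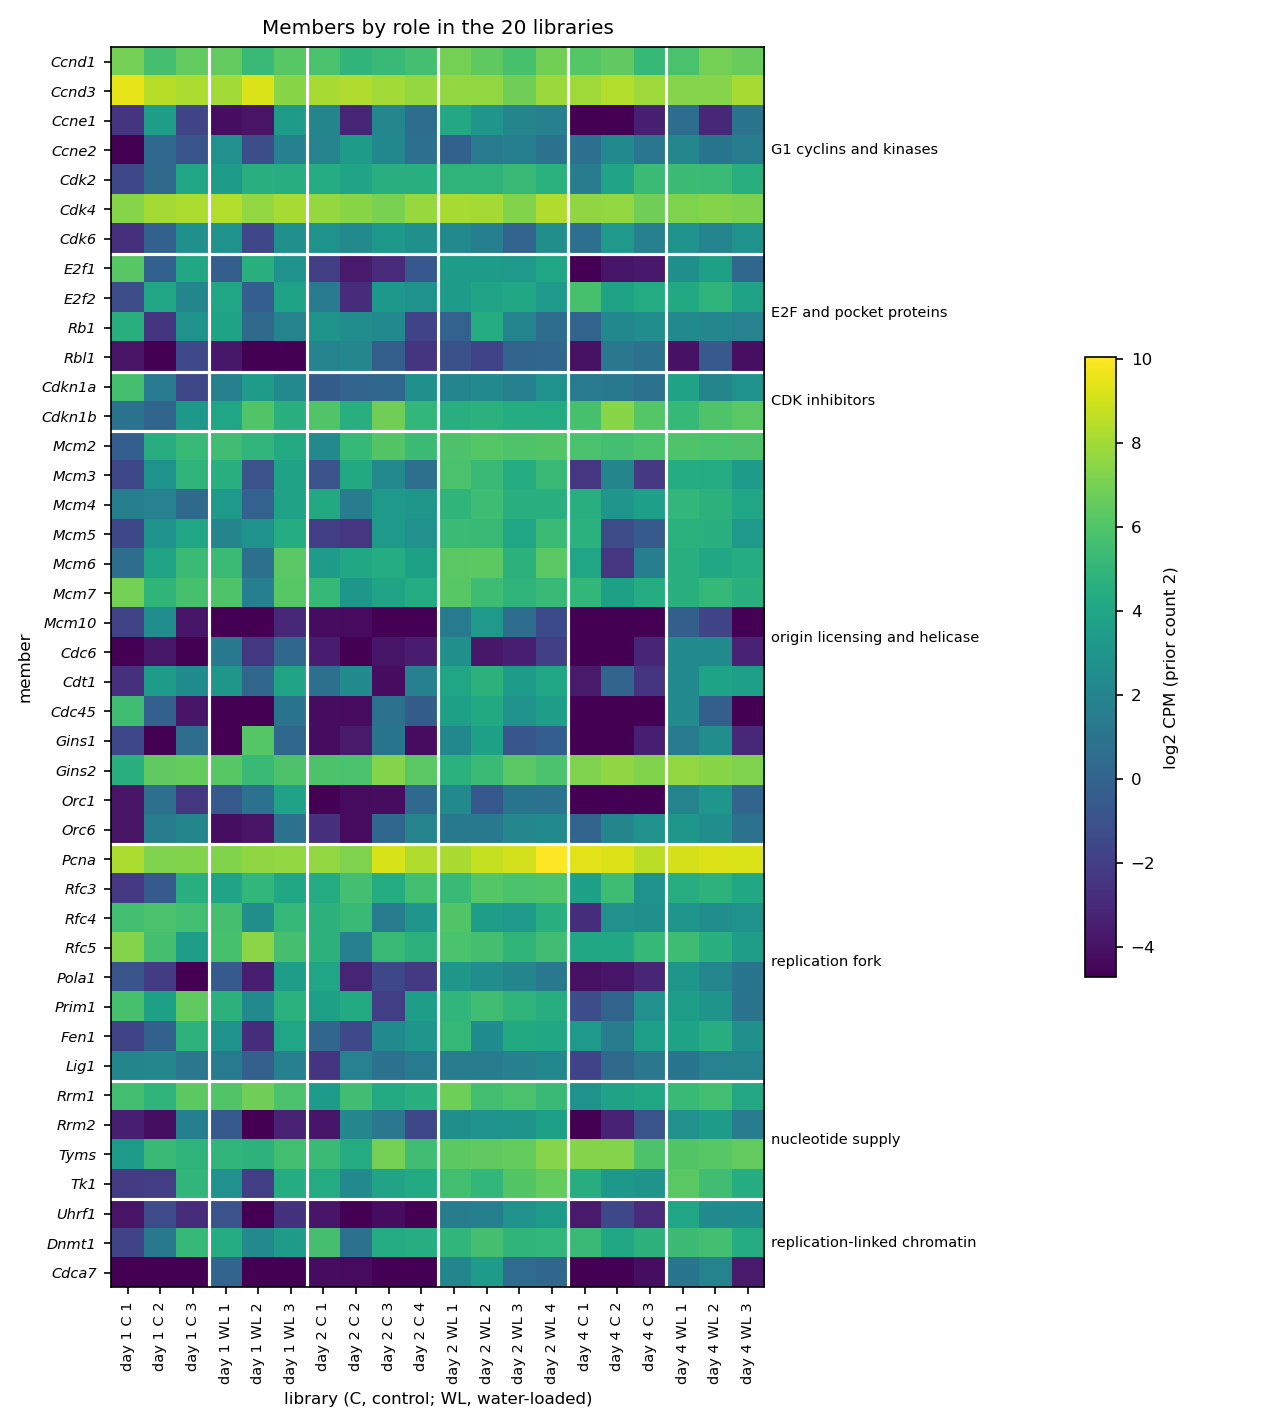
Level of the 42 tested members (rows, grouped by role) in the 20 libraries (columns, grouped by day and treatment; C, control; WL, water-loaded). Colour is log2 CPM with a prior count of 2. Dark cells, at or near 0 counts, lie mostly in the control columns of days 2 and 4 for Uhrf1, Cdca7, Orc1, Cdc45, Mcm10 and Cdc6, while Ccnd3, Cdk4 and Pcna are bright in all 20 libraries.

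Few single members passed the test. By edgeR, 2 of 42 members, Uhrf1 and Cdca7, were higher over the average of days at an adjusted p under 0.05, both among the 5 that passed the filter through water-loaded libraries alone, where 0.076% of all genes tested were called higher and 0.159% in either direction. No member passed at a single day, and no gene did (0% of 14472 genes at days 1, 2 and 4), though without day 1 control 3 Rfc3 was called at day 1. At an unadjusted p under 0.05, 3 members were higher and 1 lower at day 1, 10 higher and 1 lower at day 2, and 14 higher and 0 lower at day 4. Over the average 15 were higher and 1 lower. The share of all genes that was higher at that level was 8.6%, 2.76% and 5% on those days and 7.42% over the average. The share that was lower was 6.98%, 2.47% and 2.22%, and 6.05% over the average. DESeq2 called 2, 4 and 6 members at days 1, 2 and 4 and 11 over the average, where it called 7.82%, 0.532%, 2.2% and 4.93% of all genes. With limma on log2(FPKM + 1) of the deposited FPKM values, 0 members passed at each single day and 1 over the average, among 0.0138%, 0%, 0.0138% and 0.152% of all genes. The water-load effect did not pass as different between days for any member (edgeR F test, smallest adjusted p = 0.43, with 0% of genes called). At an unadjusted p under 0.05 there were 5 members, beside 8.56% of all genes, and DESeq2 called 4, beside 1.26%.

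The lowest water-loaded rat exceeded the highest control rat for 15 of 42 members at day 2, where 2.35% of all genes did so, and for 13 of 42 at day 4, where 7.93% did. On both days this held for 7 members, 16.7% of those tested against 0.428% of all genes: E2f1, Mcm3, Mcm6, Cdt1, Rrm2, Uhrf1 and Cdca7. At day 1 it held for Cdkn1b and Cdc6, 2 members, beside 5.71% of all genes. Among the members so counted, Uhrf1 and Cdca7 (days 2 and 4), Mcm10 (day 2), Orc1 (day 4) and Cdc6 (day 1) passed the filter through water-loaded libraries alone. For these a higher level in water-loaded rats was favoured by the filter. The reverse order was found for 0 members at any day, beside 5.17%, 1.88% and 6.73% of all genes at days 1, 2 and 4.

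Detected genes also moved with treatment at day 4, with 13071 to 13804 in control and 14279 to 14482 in water-loaded libraries; at day 2 the ranges overlapped, with 13322 to 15236 and 13651 to 15266. In a fit with detected genes as a covariate the members' median was 1.36 at day 2, with 36 of 42 higher, and 0.75 at day 4, with 30 of 42 higher. The duct's own cell markers differed as well. The 11 principal cell markers summed to 27300 to 42900 CPM in control and 15300 to 27500 CPM in water-loaded rats at day 2, with 10 of 11 lower, and to 36400 to 71500 against 19300 to 29100 CPM at day 4, with 8 of 11 lower. Such sums weigh the abundant markers most. The median log2 difference of the 11 was -0.4 at day 2 and -0.26 at day 4. The 8 markers of type A intercalated cells, the acid-secreting cells of the duct, summed to 4360 to 6460 against 6960 to 9010 CPM at day 2, with 4 of 8 higher, and to 4770 to 7070 against 6190 to 7940 CPM at day 4, with 5 of 8 higher. The 6 markers of type B intercalated cells share Atp6v1g3 and Foxi1 with the type A list. They summed to 8520 to 10600 against 5700 to 9780 CPM at day 2, with 0 of 6 higher. At day 4 they summed to 11100 to 12200 against 7770 to 10100 CPM, with 1 of 6 higher. The part of these markers in the members' differences was not tested. The average over days depended on day 1 control 3, without which its median was 1.27 in place of 0.65.

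**Figure D2:**
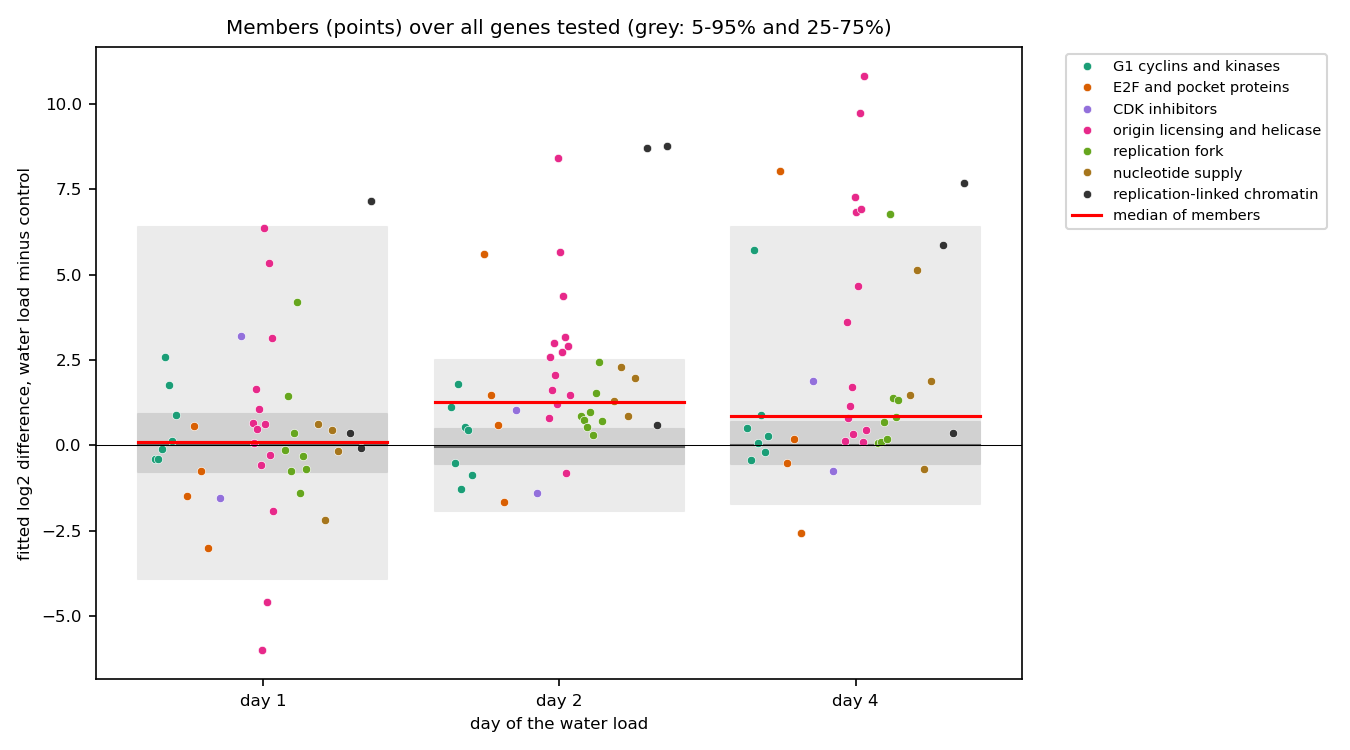
Fitted log2 difference, water-loaded minus control, of each tested member (points, coloured by role) at days 1, 2 and 4, with the members' median in red. Grey bands hold the middle of all 14472 genes tested (light, the 5th to 95th percentile; dark, the quartiles). The members' median is 0.10 at day 1, 1.27 at day 2 and 0.86 at day 4, and the light band is narrowest at day 2.

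E2F proteins bind short words near the start of their target genes, and such words are shown here because many of the members are textbook E2F targets. The words searched were TTTCCCGC, TTTCGCGC, TTTGCCGC and TTTGGCGC on either strand, in the 250 bases before and 50 after each gene start in RefSeq's GRCr8 assembly; the counts were made on rn6. Overlapping matches on the 2 strands, which read as 1 palindrome-like stretch, were kept. Of the 44 members 34 had a window in the table, and 17 of these (50.0%) held at least 1 word, against 2.14% of all 33469 windows and 3.38% of the 13167 genes of the count table with a window. By role, the words were found for 7 of 11 licensing and helicase genes, 4 of 4 replication-linked chromatin genes and 3 of 8 fork genes. They were found for 2 of 2 pocket protein genes (Rb1 and Rbl1), 1 of 3 nucleotide genes, 0 of 4 cyclins and kinases and 0 of 2 inhibitors. The 10 members without a window, which were not searched, were Ccnd1, Ccnd2, Ccne2, Cdk6, E2f1, E2f2, Mcm4, Cdc6, Orc1 and Rrm2. Among 44 other DNA replication genes with a window 19 (43.2%) held a word, and among 21 mitosis genes 1 (4.76%) did.

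The treatments of E2f1, E2f2, Mcm4 and Rrm2 did not overlap at day 2, but these members had no window. Printed below are the windows of the 6 members that held a word and whose treatments did not overlap at day 2. Each runs from 230 bases before the start to 30 after it, 5′ to 3′ on the gene's strand, with matches to a word or its reverse complement in capitals. The stretches are chr9:30733717-30733976, minus strand (Mcm3), chr19:13488583-13488842, plus strand (Mcm5), chr13:42404323-42404582, minus strand (Mcm6), chr19:67529019-67529278, plus strand (Cdt1), chr9:1222956-1223215, plus strand (Uhrf1) and chr3:77730085-77730344, plus strand (Cdca7). For Uhrf1, which has 3 windows in the table, the window with a word is not the one at the outermost start of the gene.
Mcm3: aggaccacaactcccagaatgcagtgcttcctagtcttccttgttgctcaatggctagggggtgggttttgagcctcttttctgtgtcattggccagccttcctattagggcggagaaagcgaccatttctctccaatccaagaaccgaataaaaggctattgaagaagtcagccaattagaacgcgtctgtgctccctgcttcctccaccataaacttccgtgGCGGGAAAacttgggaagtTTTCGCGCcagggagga
Mcm5: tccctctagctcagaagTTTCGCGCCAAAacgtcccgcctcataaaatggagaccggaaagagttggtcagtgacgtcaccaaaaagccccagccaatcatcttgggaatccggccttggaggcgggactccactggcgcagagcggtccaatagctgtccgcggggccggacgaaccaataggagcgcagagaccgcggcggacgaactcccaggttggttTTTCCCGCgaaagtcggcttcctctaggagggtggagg
Mcm6: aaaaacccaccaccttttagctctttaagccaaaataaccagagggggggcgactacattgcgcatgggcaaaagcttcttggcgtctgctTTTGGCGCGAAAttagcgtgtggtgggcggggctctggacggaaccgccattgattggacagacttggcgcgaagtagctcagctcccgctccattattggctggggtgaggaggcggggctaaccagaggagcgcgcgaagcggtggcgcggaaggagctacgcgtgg
Cdt1: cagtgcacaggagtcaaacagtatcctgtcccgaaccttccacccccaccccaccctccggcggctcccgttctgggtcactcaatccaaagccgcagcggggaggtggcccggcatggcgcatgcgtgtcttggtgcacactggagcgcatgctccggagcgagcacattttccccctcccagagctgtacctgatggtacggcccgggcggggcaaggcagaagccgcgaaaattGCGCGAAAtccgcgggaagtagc
Uhrf1: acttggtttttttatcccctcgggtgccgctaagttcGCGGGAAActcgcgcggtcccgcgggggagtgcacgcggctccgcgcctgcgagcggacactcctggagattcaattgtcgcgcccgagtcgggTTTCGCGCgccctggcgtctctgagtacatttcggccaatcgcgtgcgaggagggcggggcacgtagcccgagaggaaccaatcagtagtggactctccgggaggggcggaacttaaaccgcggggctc
Cdca7: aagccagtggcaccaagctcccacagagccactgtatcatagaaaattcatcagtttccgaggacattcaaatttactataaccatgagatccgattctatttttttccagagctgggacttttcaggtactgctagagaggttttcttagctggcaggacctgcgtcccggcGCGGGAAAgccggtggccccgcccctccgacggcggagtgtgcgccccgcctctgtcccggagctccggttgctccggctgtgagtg
In Mcm5 and Mcm6 a word on the gene's strand overlaps one on the other strand, and Mcm5 has a further word that ends at the last base before the start. Cdt1 has a further word at bases 33 to 40 after the start, past the stretch shown. The median log2 difference at day 2 was 1.05 in the 16 tested members with a word and 1.05 in the 17 without. It was 0.46 and -0.27 at day 1, 1.25 and 0.83 at day 4, and 1.15 and 0.51 over the average, with no test of the difference. A match is only a description of these letters in this window.

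**Figure D3:**
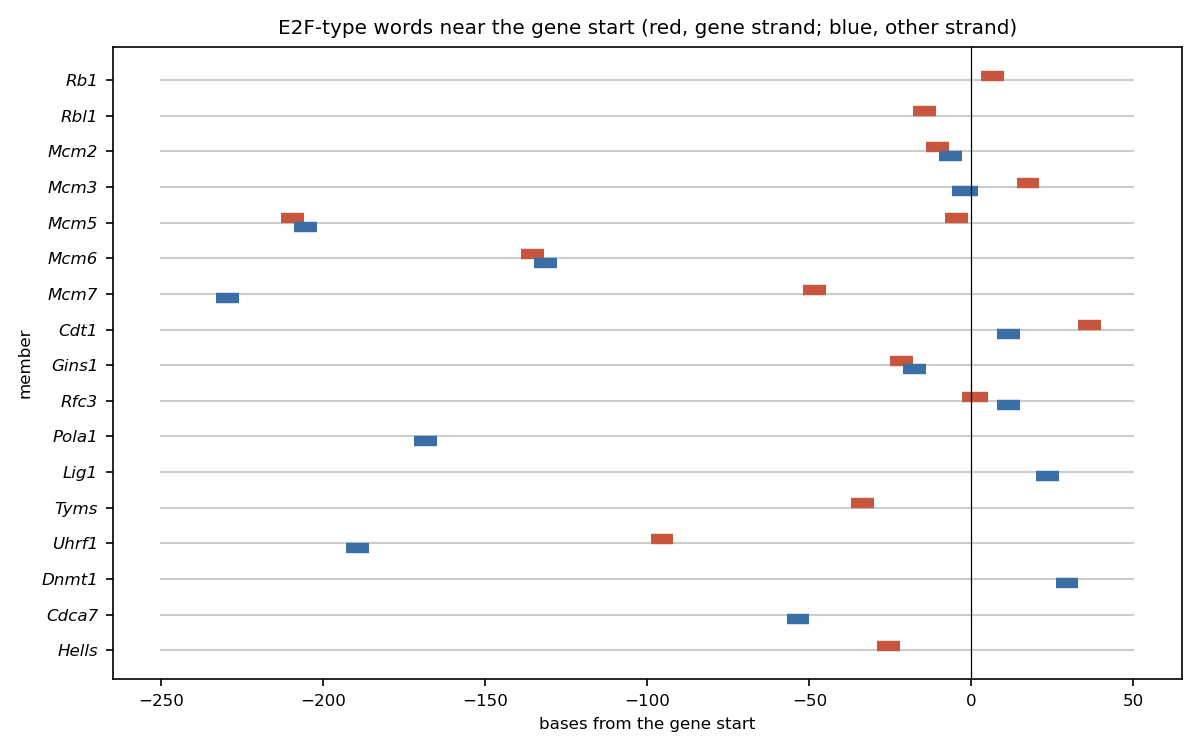
Place of the E2F-type words in the windows of the 17 members that held one. The x axis is the distance in bases from the gene start, red bars are words on the gene's strand and blue bars words on the other strand. Adjoining red and blue bars in Mcm2, Mcm5, Mcm6 and Gins1 are overlapping matches.

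Replication-linked chromatin genes held the members called over the average of days. Uhrf1 (ENSRNOG00000048411) encodes the protein that reads hemimethylated DNA behind the fork and brings in the methyltransferase Dnmt1. At day 2 its level was 0.0312, 0, 0.0151 and 0 CPM in control rats and 2.75, 3.07, 7.06 and 10.1 CPM in water-loaded rats. At day 4 it was 0.0428, 0.309 and 0.0922 CPM in controls and 15.4, 5.23 and 5.45 CPM in water-loaded rats. All 7 water-loaded rats of these days thus lay above all 7 controls, most of which were near the floor. At day 1 both treatments were low, at 0.0276, 0.348 and 0.0986 CPM and at 0.478, 0 and 0.131 CPM. The 4 day 2 controls held 3 counts of Uhrf1 in all against 1276 in water-loaded rats, a ratio of 474 (95% exact binomial interval 162 to 2300, which covers counting error only).

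Uhrf1 rose over the average of days by a log2 difference of 4.97 (SE 0.98, adjusted p = 0.0482 by edgeR), from 0.0964 ± 0.127 to 4.97 ± 4.90 CPM (SD, n = 10 each, over all days). Its fitted differences were 0.36 (SE 1.48) at day 1, 8.70 (SE 1.79, adjusted p = 0.214) at day 2 and 5.87 (SE 1.82, adjusted p = 0.674) at day 4. The call lay just inside the threshold, for a gene over the filter level in 2 control and 8 water-loaded libraries. It ended when replicate number entered as a block (adjusted p = 0.308), when detected genes entered as a covariate (0.157) and without any 1 library other than day 1 water-loaded 2 (0.052 to 0.132), while the log2 difference stayed between 4.45 and 5.40 in those leave-outs. Over all its alternatives the adjusted p ran from 3.41e-09 (DESeq2) to 0.308.

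Cdca7 (ENSRNOG00000001514), the E2F- and Myc-driven partner of the remodeler Hells, was at or under 1 count in all 10 control libraries. At day 2 it reached 4.14, 10.6, 1.30 and 1.09 CPM in water-loaded rats, against 0.0156, 0.0142, 0 and 0 CPM in controls. On day 4 the level was 1.97, 3.63 and 0.0412 CPM against 0, 0 and 0.0184 CPM, so that the third water-loaded rat, with 2 counts, was above the controls by 1 count only. At day 1, 1.01 CPM was found in water-loaded rat 1 and 0 in the other 5 rats. Cdca7 rose over the average of days by a fitted log2 difference of 7.87 (SE 1.52, adjusted p = 0.0491 by edgeR), from 0.00483 ± 0.00784 to 2.37 ± 3.22 CPM (SD, n = 10 each). With controls at 0 to 2 counts per day that fit is no measure of size. Cdca7 was over the filter level, and held 3 or more counts, in 0 control and 7 water-loaded libraries. It thus met both the rule and the filter through water-loaded rats alone, which favoured a higher level there. By summed counts the ratio was 566 at day 2 (interval 156 to 4680) and 252 at day 4 (44.8 to 9980), and at day 1 at least 20.1-fold against a floor of 3 counts over the group. The call was lost with DESeq2's size factors (adjusted p = 0.0526), the block (0.328), the detected genes (0.0862), without the 2 unlike day 1 libraries (0.0839) and 18 of the 20 leave-outs. Over all its alternatives the adjusted p reached 1, without day 1 water-loaded 1.

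The other chromatin members did not pass. Dnmt1, the maintenance DNA methyltransferase, was detected in all 20 libraries, at 24.2 ± 21.0 against 37.0 ± 9.95 CPM at day 2 (control against water-loaded, n = 4 each) and 28.4 ± 11.1 against 36.8 ± 13.7 CPM at day 4 (n = 3 each). Its log2 differences were 0.61 (SE 0.98) and 0.37 (SE 1.13), and its groups overlapped. Hells, the partner of Cdca7, stayed at or under 0.228 CPM in controls and 0.131 CPM in water-loaded rats.

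**Figure D4:**
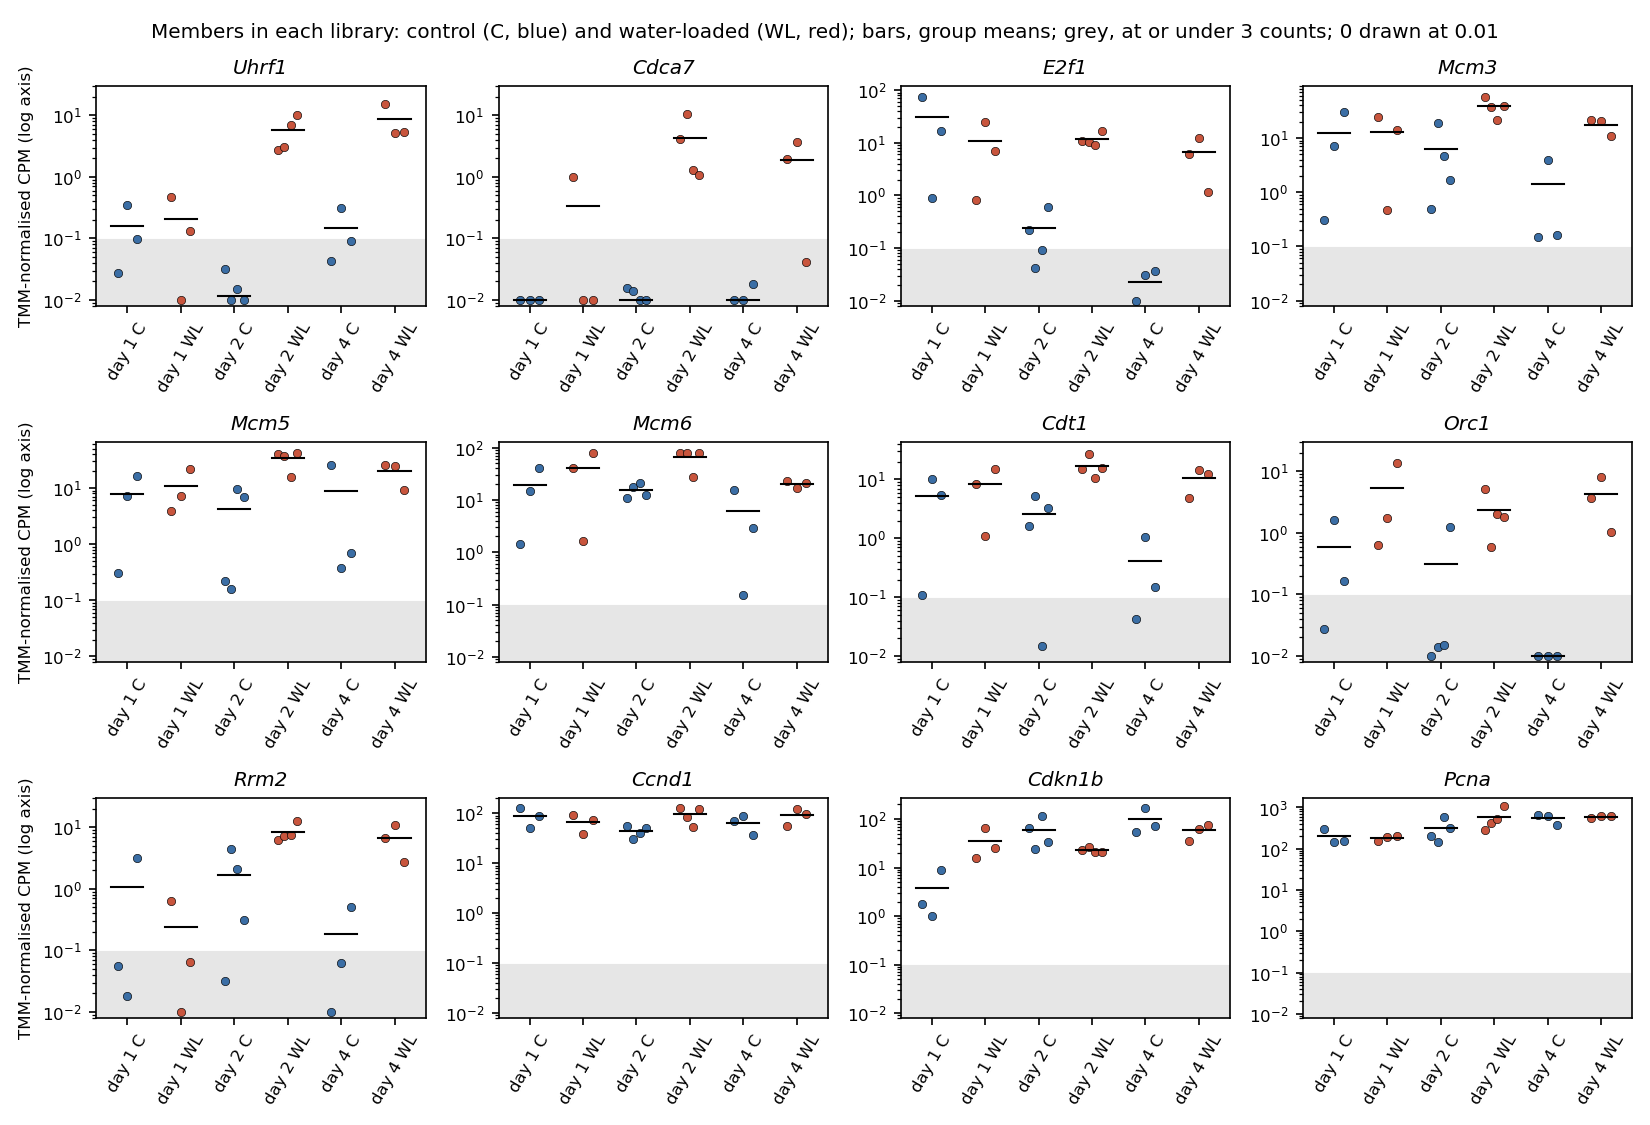
TMM-normalised CPM of 12 members in each library on a log axis (blue, control; red, water-loaded; bars, group means; 0 drawn at 0.01; grey, at or under 3 counts). Uhrf1, E2f1, Cdt1, Orc1 and Rrm2 fall to or under the floor in control libraries and lie above it in all water-loaded libraries of days 2 and 4, while Ccnd1 and Pcna vary over a narrow range.

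The 14 origin licensing and helicase genes had a median log2 difference of 2.68 at day 2, with 13 higher, and of 2.67 at day 4, with 14 higher. None passed the test at a single day or over the average by edgeR. Over the average 9 were higher at an unadjusted p under 0.05, beside 7.42% of all genes. DESeq2 called 6 there (Mcm4, Cdc6, Cdt1, Cdc45, Gins1 and Orc1), beside 4.93%. All water-loaded rats lay above all controls for 7 of the 14 at day 2 and 5 of the 14 at day 4. Over all genes these shares were 2.35% and 7.93%. Mcm10, Cdc6 and Orc1 passed the filter through water-loaded libraries alone, which favoured a higher level in those rats.

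Mcm2 to Mcm7 form the ring of the replicative helicase, and its subunits differed in their values. Mcm5 (ENSRNOG00000014336) was at 0.218, 0.157, 9.77 and 6.79 CPM in day 2 controls and at 40.2, 37.7, 15.5 and 41.3 CPM in water-loaded rats. Mcm3 stood at 0.483, 18.9, 4.62 and 1.65 CPM against 57.2, 37.8, 21.6 and 39.1 CPM on that day. Mcm6 stood at 11, 17.5, 21.5 and 12.7 CPM against 77.4, 80.2, 27.8 and 77.6 CPM. All 3 subunits were higher in every water-loaded rat of day 2, by fitted log2 differences of 2.99 (SE 1.39), 2.60 (SE 1.33) and 2.07 (SE 1.06), none past the adjusted threshold. At day 4 Mcm3 and Mcm6 again did not overlap, at 0.150, 3.98 and 0.166 against 21.4, 20.7 and 10.9 CPM for Mcm3 and at 15.6, 0.154 and 2.95 against 23.1, 16.7 and 21.1 CPM for Mcm6. Mcm5 did overlap at day 4, since control 1 held 25.7 CPM beside 0.370 and 0.682 CPM in the other two. Without that library its difference over the average rose from 1.54 (SE 0.84, adjusted p = 0.454) to 2.90.

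Mcm2 and Mcm7 had smaller differences. Mcm2 (ENSRNOG00000016316) was at 38.1 ± 26.6 CPM in day 2 controls and 66.3 ± 5.50 CPM in water-loaded rats (n = 4 each), where control 1, at 4.89 CPM, was far under the other 3, at 35.8 to 69.6 CPM. At day 4 it was at 54.9 ± 4.81 against 60.6 ± 2.39 CPM (n = 3 each), a log2 difference of 0.14 (SE 0.84). Over the average its difference was 0.53 (SE 0.47, adjusted p = 0.722). Mcm7 had log2 differences of 1.23 (SE 0.70) at day 2 and 0.33 (SE 0.79) at day 4, and Mcm4 of 1.63 (SE 0.75) and 0.81 (SE 0.85).

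The loaders of the helicase were scarcer. Orc1 (ENSRNOG00000008841), the large subunit of the origin recognition complex, was at 0 CPM in all 3 day 4 controls and at 3.64, 8.23 and 1.05 CPM in water-loaded rats. That is at least 194-fold higher, against a floor of 3 counts over the group. At day 2 Orc1 stood at 0, 0.0142, 0.0151 and 1.23 CPM against 5.09, 0.590, 2.00 and 1.81 CPM, so that control 4 alone overlapped the water-loaded rats. Over the average of days its difference was 5.63 (SE 1.36, adjusted p = 0.101), and without day 2 control 4 it was 7.18 and was called (0.0278). That library held the only day 2 control value of Orc1 over the floor, for a gene over the filter level in 2 control and 10 water-loaded libraries. Over the leave-outs the difference ran from 4.91 to 7.18 with an adjusted p up to 0.242. Over all its alternatives the adjusted p reached 0.308. Orc6, the smallest subunit, had a difference of 1.47 (SE 1.55) at day 2 and 0.44 (SE 1.76) at day 4.

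Cdc6 (ENSRNOG00000027787) and Cdt1 load the Mcm ring onto origins. Cdc6 was at or under 0.0737 CPM in all 10 control libraries, and 3 of these held 3 or more counts against 9 of 10 water-loaded libraries. It reached 2.37, 0.159 and 1.18 CPM in day 1 water-loaded rats and 4.86, 4.76 and 0.0618 CPM at day 4, but at day 2 6.51 CPM in rat 1 stood beside 0.0347, 0.0553 and 0.223 CPM in the others. The day 2 difference of 5.67 (SE 2.15) thus fell to 1.65 without that rat. Over the average it was 6.29 (SE 1.44, adjusted p = 0.082). Cdt1 was at 1.59, 5.33, 0.0151 and 3.26 CPM in day 2 controls against 15.3, 27.0, 10.6 and 15.8 CPM. At day 4 Cdt1 stood at 0.0428, 1.05 and 0.147 against 4.91, 14.4 and 12.3 CPM, and its average difference was 2.69 (SE 0.86, adjusted p = 0.179).

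The helicase activators Cdc45, Mcm10 and Gins1 were also low in most control libraries of days 2 and 4. Cdc45 was at 0.0156, 0.0142, 1.69 and 0.729 CPM in day 2 controls and at 12.9, 19.4, 7.32 and 11.8 CPM in water-loaded rats. At day 4 it was 0 in the controls and 5.21, 0.807 and 0 CPM in water-loaded rats, while day 1 control 1 held 46.1 CPM. Mcm10, which links the helicase to polymerase alpha, was at or under 0.0156 CPM in day 2 controls and at 2.66, 9.11, 1.37 and 0.347 CPM in water-loaded rats. At day 1 Mcm10 stood at 0.276, 5.72 and 0.0329 CPM in controls and at 0, 0 and 0.0872 CPM in water-loaded rats. That difference was -6 (SE 2.54, adjusted p = 0.282 by edgeR). Gins1 was at 0, 0 and 0.0553 CPM in day 4 controls against 2.41, 5.67 and 0.0823 CPM. At day 1 Gins1 held 70.7 CPM in water-loaded 2, an unlike library, beside 0 and 1.16 CPM in the other water-loaded rats. Gins2, a subunit of the same complex as Gins1, differed from it, with 88.9 ± 48.8 against 50.7 ± 22.1 CPM at day 2 (n = 4 each). The log2 differences of Gins2 were -0.81 (SE 0.43) and 0.09 (SE 0.49) at days 2 and 4.

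The 8 replication fork genes were all higher at days 2 and 4, by medians of 0.81 and 0.76, and 0 of 8 passed at any day by edgeR. At an unadjusted p under 0.05 there was 1 at each of these days, beside 2.76% and 5% of all genes that were higher. DESeq2 called 1, Pola1, at day 4 and over the average, beside 2.2% and 4.93% of all genes. Over the control days it called Rfc4, Pola1 and Prim1, beside 11%. Pcna (ENSRNOG00000021264), the sliding clamp, was at 205, 148, 583 and 318 CPM in day 2 controls and 286, 425, 518 and 1060 CPM in water-loaded rats. The groups overlapped, and the difference of 0.87 (SE 0.41, adjusted p = 0.947) fell to 0.41 without water-loaded rat 4. At day 4 Pcna stood at 669, 628 and 373 CPM against 542, 609 and 605 CPM, a difference of 0.07 (SE 0.47). Its average difference was 0.27 (SE 0.26, adjusted p = 0.754).

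Pola1 (ENSRNOG00000013322), the catalytic subunit of the polymerase that starts each new strand, was at 0.0214, 0.0309 and 0.0737 CPM in day 4 controls and at 8.47, 4.28 and 2.02 CPM in water-loaded rats. The difference at day 4 was 6.77 (SE 2.4, adjusted p = 0.674). At day 2 control 1 alone, at 15.8 CPM, lay above the water-loaded rats, at 8.45, 5.71, 4.13 and 2.23 CPM, while the other controls held 0.0712, 0.317 and 0.178 CPM. The day 2 difference of 0.32 (SE 1.6) was 4.75 without that library. Over the average it was 3.77 (SE 1.16, adjusted p = 0.17 by edgeR and 0.00347 by DESeq2). Over all its alternatives the adjusted p of this average reached 0.402. Prim1, the primase that works with Pola1, stood at 12.9, 19.8, 0.211 and 11.5 CPM in day 2 controls and 32.3, 45.2, 29.7 and 22.6 CPM in water-loaded rats, which did not overlap.

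The clamp loader and the enzymes that finish the lagging strand did not pass. Rfc3 (ENSRNOG00000001088), a clamp loader subunit, was at 20.4, 49.8, 21.5 and 47.0 CPM in day 2 controls and 38.8, 72.6, 58.0 and 63.8 CPM in water-loaded rats, and at 21.3 ± 19.5 against 22.8 ± 5.35 CPM at day 4 (n = 3 each). Its average difference was 0.76 (SE 0.59, adjusted p = 0.657), and without day 1 control 3 it was 2.20 and was called (0.0449). Over the leave-outs the adjusted p of this average reached 0.835. Rfc4 and Rfc5 had differences of 0.54 (SE 0.94) and 0.97 (SE 0.72) at day 2. Fen1, the flap endonuclease, had 2.44 (SE 1.35) and Lig1, the ligase that seals nicks, 0.71 (SE 1.03) on that day.

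The 4 genes of nucleotide supply were higher at day 2 (4 of 4, median 1.65), and 3 of 4 were higher at day 4 (median 1.69), none past the adjusted threshold. Rrm1 (ENSRNOG00000045752) and Rrm2 (ENSRNOG00000054286) encode the large and the S-phase subunit of ribonucleotide reductase. Rrm2 was at 0.0312, 4.37, 2.13 and 0.308 CPM in day 2 controls and 6.12, 7.16, 7.63 and 12.8 CPM in water-loaded rats. The day 4 values were 0, 0.0617 and 0.498 against 6.71, 10.8 and 2.78 CPM. Rrm2 did not overlap on either day, with differences of 2.30 (SE 1.69) and 5.15 (SE 2.22, adjusted p = 0.674). Over the average its difference was 1.76 (SE 1.07, adjusted p = 0.515) and moved between 0.84 and 3.37 when single day 1 libraries were left out.

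Rrm1 was more abundant and steadier. It stood at 11, 45.9, 19.9 and 25.3 CPM in day 2 controls and 109, 48.4, 56.6 and 37.0 CPM in water-loaded rats, and at 7.12, 13.8 and 16.9 against 39.3, 48.5 and 18 CPM at day 4. The treatments did not overlap at day 4. Its differences of 0.63 (SE 0.59), 1.30 (SE 0.52) and 1.48 (SE 0.60) at days 1, 2 and 4 averaged 1.14 (SE 0.33, adjusted p = 0.144), and stayed between 1.00 and 1.29 over all its alternatives. DESeq2 gave this average an adjusted p of 0.0129, and over all its alternatives the adjusted p reached 0.374. Tk1, the cytosolic thymidine kinase of S phase, was at 20.7, 4.93, 14.8 and 19.9 CPM against 47.3, 32.8, 67.7 and 92.5 CPM at day 2. Tyms, thymidylate synthase, had differences of 0.87 (SE 0.51) at day 2 and -0.70 (SE 0.58) at day 4.

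Of the regulators upstream, E2f1 (ENSRNOG00000016708), an activator E2F, came nearest to a call. It was at 0.218, 0.0427, 0.0906 and 0.600 CPM in day 2 controls and 10.8, 10.5, 9.10 and 16.4 CPM in water-loaded rats. At day 4 it was at 0, 0.0309 and 0.0369 CPM against 6.07, 12.5 and 1.17 CPM. The 7 water-loaded rats all lay above the 7 controls. At day 1 the controls held 74.8, 0.879 and 16.5 CPM and the water-loaded rats 0.809, 25.0 and 7.10 CPM, which overlapped widely. The fitted differences were -1.49 (SE 1.35), 5.61 (SE 1.40, adjusted p = 0.547) and 8.05 (SE 1.85, adjusted p = 0.536) at days 1, 2 and 4, and the average was 4.06 (SE 0.85, adjusted p = 0.0535). Its 3 counts in all day 4 controls against 925 gave a ratio of 296 (interval 101 to 1440). Without day 1 water-loaded 1 the average was called (0.0489), and DESeq2 called it (3.04e-06). Over the leave-outs the edgeR adjusted p of the average ran from 0.0489 to 0.165, and over all its alternatives it reached 0.389. The difference of the effect between days had an unadjusted p of 0.00126 and an adjusted p of 0.43.

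E2f2, the second activator E2F of the set, was at 2.45, 0.0997, 8.76 and 7.36 CPM in day 2 controls and 10.6, 15.0, 16.6 and 9.43 CPM in water-loaded rats, and at 29.3 ± 21.0 against 20.6 ± 7.66 CPM at day 4 (n = 3 each). Rbl1 (ENSRNOG00000006921), the pocket protein p107, had fitted differences below 0 at every day. It was at 3.60, 4.30, 0.815 and 0.146 CPM against 0.446, 0.260, 1.02 and 1.06 CPM at day 2, with the control libraries numbered 1 and 2 high. Its average difference was -2.41 (SE 1.12, adjusted p = 0.354), and in the day 2 libraries numbered 3 and 4 alone the difference was 1.12. Rb1, the retinoblastoma protein, had differences of 0.59 (SE 1.27) at day 2 and 0.20 (SE 1.46) at day 4.

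The 2 kinase inhibitors had different patterns. Cdkn1b (ENSRNOG00000007249), which encodes p27, was at 1.82, 1.01 and 8.78 CPM in day 1 controls and at 15.5, 66.7 and 25.3 CPM in water-loaded rats, with no overlap and a difference of 3.21 (SE 0.81, adjusted p = 0.17). At day 2 the controls were mostly the higher ones: they held 66, 23.9, 115 and 33.8 CPM and water-loaded rats 23.1, 26.3, 21.3 and 20.8 CPM, a difference of -1.38 (SE 0.65, adjusted p = 0.952). At day 4 the difference was -0.75 (SE 0.75). Without the 2 unlike day 1 libraries the day 1 difference was 2.05 (adjusted p = 0.662). Cdkn1a (ENSRNOG00000000521), which encodes p21, was at 2.55, 2.31 and 1.77 CPM in day 4 controls and 13.8, 3.95 and 7.10 CPM in water-loaded rats, with no overlap and a difference of 1.90 (SE 1.30, adjusted p = 0.891). At day 2 its control 4 held 6.32 CPM and the other controls 0.748 to 1.16 CPM, and the difference was 1.05 (SE 1.10).

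Among the cyclins and kinases of G1, Cdk4, Ccnd3 and Ccnd1 were abundant and the E cyclins scarce. By length-scaled level the medians over 20 libraries were 207 FPKM for Cdk4, 146 FPKM for Ccnd3, 21.1 FPKM for Ccnd1, 10.8 FPKM for Cdk2, 3.58 FPKM for Cdk6, 0.861 FPKM for Ccne1 and 0.857 FPKM for Ccne2, beside 17.5 FPKM for the inhibitor gene Cdkn1b, 328 FPKM for Pcna and 2.25 FPKM for E2f1. The median log2 difference of the 7 was 0.46 at day 2, with 4 of 7 higher, and 0.28 at day 4, with 5 of 7 higher. Ccnd1 (ENSRNOG00000020918), cyclin D1, stood at 56.2, 30.5, 39.6 and 50.4 CPM in day 2 controls and 127, 83.1, 53.3 and 122 CPM in water-loaded rats, where water-loaded rat 3 alone overlapped the controls. The difference was 1.12 (SE 0.41, adjusted p = 0.857) at day 2 and 0.51 (SE 0.47) at day 4, and 0.41 (SE 0.26, adjusted p = 0.54) over the average. Ccnd3, cyclin D3, had differences of -0.41 (SE 0.42), -0.52 (SE 0.36) and -0.42 (SE 0.42) at days 1, 2 and 4 (average -0.45, SE 0.23, adjusted p = 0.419).

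Ccne1 (ENSRNOG00000014786), the cyclin E1 that fires S phase with Cdk2, was at 0, 0 and 0.0553 CPM in day 4 controls and at 1.52, 0.0807 and 1.93 CPM in water-loaded rats. The lowest of these was at the floor of 3 counts or close to it, and the summed counts, 3 against 160, gave a ratio of 51.2 (interval 17.2 to 251). At day 2 Ccne1 overlapped, at 2.43 ± 1.99 against 8.44 ± 7.01 CPM (n = 4 each). Its average difference was 2.47 (SE 1.16, adjusted p = 0.363) and was 0.08 without day 1 water-loaded 3. Cdk2 (ENSRNOG00000006469) was at 21.8, 14.7, 23.7 and 24.7 CPM in day 2 controls and at 30.1, 29.2, 38.2 and 25.9 CPM in water-loaded rats, which did not overlap though the difference was only 0.54 (SE 0.84). Its average difference was 1.06 (SE 0.54, adjusted p = 0.416). Cdk4, Cdk6 and Ccne2 had day 2 differences of 0.46 (SE 0.28), -0.86 (SE 1.11) and -1.27 (SE 1.21).

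The days also differed among rats of the same treatment. Among controls 2 of 42 members were called (edgeR F test), beside 2.45% of all genes, and 16 members had an unadjusted p under 0.05, beside 22.5%. DESeq2 called 10, beside 11%. Without day 1 control 3 edgeR called 6 members here. The called members were E2f1 (adjusted p = 0.00777), whose controls averaged 30.7 ± 39.0 CPM at day 1, 0.238 ± 0.252 CPM at day 2 and 0.0226 ± 0.0198 CPM at day 4, and Cdkn1b (adjusted p = 0.0219), at 3.87 ± 4.27, 59.7 ± 41.1 and 98.2 ± 62.7 CPM (SD, n = 3, 4 and 3). In control rats E2f1 was thus lower, and Cdkn1b higher, at the later days than at day 1. The E2f1 call was lost in a fit of the control libraries alone (0.0854) and with limma on log2(FPKM + 1) (0.0812), which called 1 member, Cdkn1b, and 3.09% of all genes. The Cdkn1b call was lost in the fit of the controls alone (0.133), without the 2 unlike day 1 libraries (0.0546) and without day 1 control 1 (0.105). Among water-loaded rats 0 members were called (smallest adjusted p = 0.122, Gins2), beside 0.263% of all genes. At an unadjusted p under 0.05 there were 6 members, beside 12.1%, and DESeq2 called 2, Gins2 and Uhrf1, beside 3.57% of all genes. With limma on log2(FPKM + 1) 2 passed, Rrm2 and Uhrf1, beside 0.857%. Day of collection and any other difference between the days' libraries cannot be told apart.

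Other genes of the cell cycle, from lists that do not overlap the members, were set beside them. Of 50 other DNA replication genes 37 were higher at day 2 and 31 at day 4, with medians of 0.71 and 0.44. By edgeR 0 were called at either day. At an unadjusted p under 0.05, 3 and 5 were higher, beside 2.76% and 5% of all genes. Gmnn, the inhibitor of Cdt1, and Slbp, the histone mRNA binding protein, were called over the control days (edgeR F test, adjusted p = 0.0316 and 0.0198). That was 2 of 50, beside 2.45% of all genes. Gmnn stood at 0.0553 ± 0.0325 CPM in day 4 controls and 9.94 ± 8.48 CPM in water-loaded rats (n = 3 each). Of 23 mitosis genes 22 were higher at day 2 and 22 at day 4, with medians of 1.79 and 2.58. The spindle genes Mad2l1 and Knstrn were called over the average (edgeR, adjusted p = 0.0482 each), with differences of 4.88 (SE 0.95) and 6.93 (SE 1.32). That was 2 of 23, beside 0.076% of all genes called higher. The 27 other G1/S control genes had medians of -0.03 at day 2 and 0.56 at day 4, with 13 and 17 higher.

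Targets of p53, among which Cdkn1a is counted in the textbooks, were not higher as a list: of 13 tested, 6 were higher at day 2 and 4 at day 4, with medians of -0.25 and -0.29. Of these Phlda3 was called over the control days (edgeR F test, adjusted p = 0.0411), 1 of 13 beside 2.45% of all genes. The 12 partners of DNA methylation maintenance, such as Tet, Mbd and Dnmt3 genes, had medians of -0.15 and 0.06 at days 2 and 4, with 5 and 6 higher. Among them Cdca7l, the paralog of Cdca7, was at 2.56 ± 3.88 against 18.4 ± 11.7 CPM at day 4 (n = 3 each), with no overlap and an adjusted p of 0.713.

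Some markers of other cells differed with treatment. The 7 fibroblast and pericyte markers summed to 6.61 to 9.32 CPM in day 4 controls and 15.0 to 74.5 CPM in water-loaded rats, with 6 of 6 tested markers higher, Lum at 0 in both groups and Pdgfra at 0 in the controls. At day 2 the sums overlapped, at 24.4 to 64.8 and 29.0 to 123 CPM. The 11 immune markers summed to 47.8 to 170 against 129 to 258 CPM at day 4, with Cd3e at 0 in both groups and Ptprc at 0 in the controls, and to 129 to 927 against 137 to 696 CPM at day 2. The 8 endothelial markers summed to 54.4 to 228 against 13.0 to 362 CPM at day 4 and to 58.4 to 806 against 124 to 674 CPM at day 2. The 12 proximal tubule markers summed to 78.2 to 971 against 98.9 to 7570 CPM at day 1, with 12 of 12 higher, to 136 to 2530 against 98.1 to 192 CPM at day 2, with 1 of 12 higher, and to 49.5 to 180 against 97.2 to 418 CPM at day 4, with 10 of 12 higher. The part of these cells in the members' differences was not tested.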

How the data were processed

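Counts were whole reads per gene for 20 libraries, made by the authors and deposited as raw counts. The submitters' processing notes name STAR 2.4.0.1, HTSeq, SAMtools and Trimmomatic 0.32, and rn6 as the build. Neither annotation nor strand setting is given in the sources used here, so reads of a gene and its antisense partner cannot be told apart. Lines of the table without a gene took 31.45% to 35.61% of a library's counts (reads mapped to more than 1 place, 21.32% to 26.92%) and were left out. Genes with near-identical copies are uncertain. FPKM values, also deposited by the authors, served only for levels between genes and in alternatives. Per the labels' protocols, reverse transcription took place in the lysed tubules and a single-cell protocol amplified the cDNA; without molecular identifiers, floors and intervals cover counting error only.

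The counts were filtered with filterByExpr on group, scaled by TMM and fitted in edgeR 4.0.16 (R 4.3.3) by robust quasi-likelihood, with a mean for each of the 6 groups, because 3 or 4 rats per group share little information alone. Water load was set against control on each day and over the equally weighted days, with F tests of the difference between days and of the days within a treatment. A gene was called at an adjusted p under 0.05. The standard error is the fitted difference divided by the root of its F. Each library came from a separate rat.

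Alternatives were DESeq2 1.42.0 and its size factors, other filters, the replicate number as a block, a covariate for detected genes, the 2 unlike day 1 libraries set aside, each library left out, fits of the libraries compared alone, and limma 3.58.1 on log2(FPKM + 1) or log2(FPKM + 0.1). The edgeR step was tested on simulated data, for water load against control at day 2 only. That check required changed genes to be called only under a low, set spread. Under the spread fitted to these data it required only the right direction, so it does not show how many real changes would be called. Same-numbered rats of day 2 deviated together (correlations of 0.147 to 0.236 across genes, over 0.1 in 4 of 4 pairs), and so did rats numbered 1 with 2 (0.11 and 0.123) and 3 with 4 (0.188 and 0.204). The numbers thus form 2 sets of day 2 rats rather than 4 separate pairs, and the block was kept on the first of these values; at days 1 and 4 they did not (-0.059 to 0.06 and -0.091 to -0.004). No other label ties the numbers to a litter or a day.

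The members and lists were chosen with earlier results of these data known. Values in every library were given for 11 members fixed by name, for each member called in any contrast and for the 2 members per role with the smallest unadjusted p over the average, 18 in all. Of the other lists, genes called in any contrast were named. Other members and genes given with values were chosen after their values were seen. Promoter windows were matched by symbol in RefSeq's GRCr8 table, for 34 of 44 members.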

Additional observations from a re-analysis of the deposited data

Results flagged for a closer look

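In the day 2 groups of 4 rats, the CPM of the 18 members named by rule was searched for a library whose gap to its nearest neighbour, as a share of the group's range, was above Dixon's 95% critical value of 0.829. This flagged 5 of 36 groups, where chance flags about 1 in 20 if values are normal; for skewed CPM near 0 that rate was not determined. Orc1 in control 4 stood at 1.23 CPM, with the next control at 0.0151 CPM. Cdkn1a in the same library stood at 6.32 CPM, with the next control at 1.16 CPM. Pola1 in control 1 stood at 15.8 CPM against 0.317 CPM in the next control. Cdc6 in water-loaded rat 1 stood at 6.51 CPM against 0.223 CPM in the next. Mcm5 in water-loaded rat 3 was the only low value of the 5, at 15.5 CPM, with the next water-loaded rat at 37.7 CPM. For Orc1 and Pola1 the high control was the only library that made the treatments overlap at day 2.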

How the results depend on the processing

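In every alternative run, the members' median log2 difference stayed above 0 at day 2 (0.96 to 1.70), day 4 (0.65 to 1.45) and over the average (0.58 to 1.27), and at day 1 it lay between -0.03 and 0.67. The counts of calls depended on the tool. DESeq2 called 1132, 77, 319 and 714 genes at days 1, 2 and 4 and over the average, with 2, 4, 6 and 11 members, 183 genes and 4 members for the difference between days, 1589 genes and 10 members over the control days, and 517 genes and 2 members over the water-loaded days. Its size factors in edgeR left 1 member over the average. Over the average the calls were 0 members with no filter, 13 genes and 0 members with a filter of 3 counts in 3 libraries, 5 genes and 0 members with the replicate block, and 4 genes and 0 members with the detected genes as a covariate, which also left 0 genes over the water-loaded days. The block moved the average median to 1.20 and left 0 members called at each day and for the difference between days; it changed no other call among these water-load comparisons and was not run for the days within a treatment, where blocks and days coincide. With the 2 unlike day 1 libraries set aside, 1 member was left over the average, 185 genes and 1 member over the control days and 11 genes over the water-loaded days. Fits of the compared libraries alone gave 13 genes and 0 members over the control days and 11 genes over the water-loaded days. With log2(FPKM + 1) 2 genes passed at day 1 and 2 at day 4, 1 member over the average, 1 over the control days, and 124 genes and 2 members over the water-loaded days. With log2(FPKM + 0.1) 1 gene passed at day 1, 2 at day 2 (1 member) and 3 at day 4 (1 member), 13 over the average (1 member), 1 for the difference between days and 127 over the water-loaded days (2 members). Without a filter, log2(FPKM + 1) gave 2 genes at day 1, 8 at day 4 (1 member), 1 member over the average, 1 over the control days and 131 genes over the water-loaded days (2 members). Leaving out 1 library gave 0 to 9 genes and 0 to 1 members at day 1, 0 genes at days 2 and 4, 6 to 37 genes and 0 to 2 members over the average, 0 to 3 genes for the difference between days, 43 to 563 genes and 1 to 6 members over the control days and 5 to 79 genes over the water-loaded days. Directions that turned, with the cause not tested, were Cdkn1b over the average with those 2 libraries set aside (-0.02), Cdca7 at day 1 without water-loaded 1 (0, with no counts left; at most 7.80 without another library), Pola1 at day 2 without control 2 (-0.10), 3 (-0.06) or 4 (-0.10) or water-loaded 1 (-0.04; up to 4.75 without control 1), and, in alternatives chosen after seeing the data, Pola1 in the day 2 libraries numbered 1 and 2 (-0.13) and Rbl1 in those numbered 3 and 4 (1.12). By depth alone, a library cannot show scarce members under 0.0926 CPM at most. Some members above the floor also spread widely within a group. Dnmt1 ran from 1.68 to 52.5 CPM in day 2 controls and Tk1 from 0.193 to 31.6 CPM in day 1 controls. Others, such as Cdk4 at 137 to 216 CPM in day 2 controls, did not. The cause of this spread was not tested, and the floor does not cover it.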
